A study of Mus musculus with 6 samples.

Results

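H3K27ac, a histone mark of active promoters and enhancers, was examined at the genes of the Polycomb repressive complex 2 (PRC2) in mouse embryonic stem cells (ESCs) before and after removal of OCT4. The 8 genes are Ezh2, Eed, Suz12, Rbbp4 and Rbbp7, which encode the core of the complex, and Jarid2, Aebp2 and Mtf2, which encode proteins that join it. For each gene, every H3K27ac peak that overlapped its body in GENCODE vM21 or the 10 kb on either side was taken, which gave 29 of the 31131 deposited peaks, all 29 above the background of 0.5 RPKM. RPKM is the number of reads divided by the peak length in kilobases and by the library size, so levels are per length. Of the 29 peaks, 12 carried the authors' mark for an OCT4 site within 1 kb, and 5 of the 8 genes had at least 1 such peak. The sites came from published ChIP-seq of OCT4 in another ESC line. The mark therefore does not measure OCT4 binding in the cells studied here.

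The cells were ESCs of strain 129SV in which the endogenous Oct4 alleles are inactivated (Oct4-/-) and a TetOFF Oct4 transgene is kept silent with doxycycline, so that the OCT4 present is a fusion to an auxin-inducible degron (CAG Oct4AID) in cells that also carry Tir1 (CAG Tir1), the plant protein that leads the fusion to degradation once auxin is added. Both groups carry all of these alleles, both transgenes are driven by the constitutive CAG promoter, and both groups were grown in N2B27 with 2 inhibitors and mLIF. The 3 uninduced libraries came from untreated cells and the 3 IAA libraries from cells given 500 μM indole-3-acetic acid (IAA, an auxin) for 1.5 h. No group without Tir1 or with IAA but wild-type OCT4 was analysed here, so an effect of IAA itself and of OCT4 loss cannot be told apart. The labels do not say whether the replicates of a group came from separate cultures, and p-values measure the spread between these libraries.

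PRC2 adds methyl groups to lysine 27 of histone H3, the residue that is acetylated in H3K27ac, and it is known for keeping developmental genes silent in ESCs. EZH2 is the methyltransferase, EED binds the methylated histone, SUZ12 holds the complex together, and RBBP4 and RBBP7 are closely related histone-binding proteins. JARID2 and AEBP2 occur together in one form of the complex, and MTF2, a Polycomb-like protein that binds DNA rich in CG, occurs in another. The values below are H3K27ac at the genes that encode these proteins, not H3K27 methylation and not their RNA.

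The libraries held 31634480 to 39547452 reads, and the median tested peak held 36 to 73 reads. The share of reads in peaks was 6.63% to 7.12% in the uninduced libraries and 4.05% to 5.15% in the IAA libraries. The RPKM scale uses the total reads and no spike-in was used here, so a change across all peaks and a change in the yield of the immunoprecipitation cannot be told apart. Each value is therefore given as deposited and also relative to the median peak or gene of its library. In bulk cells, fewer cells with the mark and less of the mark per cell cannot be told apart either. The cells had peaks at all 8 naive ESC marker genes examined, with a summed level of 41.5 to 45 RPKM in uninduced and 18.9 to 24.7 RPKM in IAA libraries. Of 12 markers of other lineages, 4 had peaks (Hand1, Gata6, Pax6 and Sox1, together 5.89 to 7.25 and 3.77 to 5.51 RPKM), and the other 8, Cdx2 and T among them, had no tested peak.

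The promoters below are shown because 18 of the 29 peaks lay within 1 kb of an annotated start of their own gene. RefSeq lists 12 promoters for the 8 genes on GRCm38.p6, each of 300 bases (250 before to 50 after a start), and the one nearest to the GENCODE start was taken for each gene. These 8 held 4 to 41 CG dinucleotides, with a median of 30.5, beside a median of 7 over the 32851 RefSeq promoters (quartiles 3 and 20), and 6 of the 8 were above that upper quartile. CG is in capitals, and each promoter is written on the strand of its gene. Suz12 is shown for the highest count (41), Jarid2 for the second of its 2 listed promoters (23), which lies wholly inside its strongest peak, Eed for the gene with the smallest fall after IAA (17), and Aebp2, which had the largest fall, for 2 of its 3 listed promoters, with 4 and 21.
Suz12, chr11:79992856-79993155, plus strand: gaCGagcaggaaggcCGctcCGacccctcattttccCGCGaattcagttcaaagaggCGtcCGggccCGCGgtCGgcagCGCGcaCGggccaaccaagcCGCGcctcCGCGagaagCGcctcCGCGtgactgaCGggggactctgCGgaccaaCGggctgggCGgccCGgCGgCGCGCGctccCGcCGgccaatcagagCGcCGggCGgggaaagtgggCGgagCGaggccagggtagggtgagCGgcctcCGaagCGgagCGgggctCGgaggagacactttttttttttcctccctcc
Jarid2, second start, chr13:44731021-44731320, plus strand: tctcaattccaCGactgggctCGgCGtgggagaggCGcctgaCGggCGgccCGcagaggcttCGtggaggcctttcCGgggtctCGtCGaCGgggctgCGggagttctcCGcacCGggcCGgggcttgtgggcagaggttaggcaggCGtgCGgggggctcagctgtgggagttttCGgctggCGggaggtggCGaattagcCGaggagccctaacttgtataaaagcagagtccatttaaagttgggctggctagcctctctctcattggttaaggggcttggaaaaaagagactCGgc
Eed, chr7:89980927-89981226, minus strand: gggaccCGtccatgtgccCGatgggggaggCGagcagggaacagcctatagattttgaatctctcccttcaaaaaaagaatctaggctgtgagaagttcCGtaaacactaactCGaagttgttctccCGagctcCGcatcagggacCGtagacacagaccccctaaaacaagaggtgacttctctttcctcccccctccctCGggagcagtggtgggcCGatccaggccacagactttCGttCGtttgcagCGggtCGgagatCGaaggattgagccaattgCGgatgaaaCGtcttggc
Aebp2, nearest start, chr6:140622413-140622712, plus strand: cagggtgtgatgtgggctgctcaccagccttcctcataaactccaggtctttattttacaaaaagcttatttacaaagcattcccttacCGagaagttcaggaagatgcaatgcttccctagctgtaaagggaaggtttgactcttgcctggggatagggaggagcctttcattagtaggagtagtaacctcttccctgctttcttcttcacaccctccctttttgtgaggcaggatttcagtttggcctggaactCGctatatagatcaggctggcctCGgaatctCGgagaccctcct
Aebp2, second start, chr6:140624659-140624958, plus strand: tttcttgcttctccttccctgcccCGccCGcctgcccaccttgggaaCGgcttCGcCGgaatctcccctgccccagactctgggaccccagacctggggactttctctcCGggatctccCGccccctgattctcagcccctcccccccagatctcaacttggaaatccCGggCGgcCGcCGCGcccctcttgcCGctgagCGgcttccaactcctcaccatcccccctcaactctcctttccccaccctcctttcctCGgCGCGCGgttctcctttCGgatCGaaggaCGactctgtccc

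The octamer ATGCAAAT, the sequence that OCT4 and its relatives bind, was searched on both strands in the 2 kb around the midpoint of each peak. It was found near 20.2% of all tested peaks with the OCT4 mark and 8.4% of those without it. At the 8 genes it was found at 2 sites, at Mtf2 and at Aebp2, in the window of 2 of the 12 marked peaks (16.7%) and of 0 of the 17 unmarked peaks. Neither site lay inside a peak. The Mtf2 site, on the minus strand at chr5:108076952-108076959, lay 460 bp from the marked peak over an internal start of the gene. The Aebp2 site, on the minus strand at chr6:140621734-140621741, lay between the first 2 Aebp2 peaks, 155 bp from one and 828 bp from the other. None of the 8 promoters held the octamer, which is in 1.74% of all RefSeq promoters. Both sites are written with 30 bases on each side on the strand of the octamer, which is in capitals.
Mtf2, chr5:108076922-108076989: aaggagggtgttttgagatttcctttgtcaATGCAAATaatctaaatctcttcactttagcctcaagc
Aebp2, chr6:140621704-140621771: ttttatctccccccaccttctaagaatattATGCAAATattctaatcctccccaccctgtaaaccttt

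H3K27ac was lower after IAA at each of the 8 genes. The peaks had been called on the merged uninduced libraries alone, which favours lower values after IAA at all genes. The level of a gene, the mean RPKM of its peaks weighted by their length, fell to between 54.6% (Aebp2) and 69.3% (Eed) of the uninduced mean, and for each gene the highest IAA library lay below the lowest uninduced library. In limma with Benjamini-Hochberg adjustment over all 13092 tested protein-coding genes, 8 of 8 were lower, and so were 86.5% of all genes. Of all genes, 82.6% also had their IAA libraries below their uninduced libraries without overlap. The median log2 change of the 8 was -0.59, beside -0.51 over all genes (quartiles -0.61 and -0.43). The exact two-sided permutation test gave p = 0.1 for each gene, the smallest p that 3 libraries against 3 allow. After quantile normalization, which gives all libraries the same distribution, 0 of the 8 passed, and 1.15% of all genes did.

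**Figure D1:**
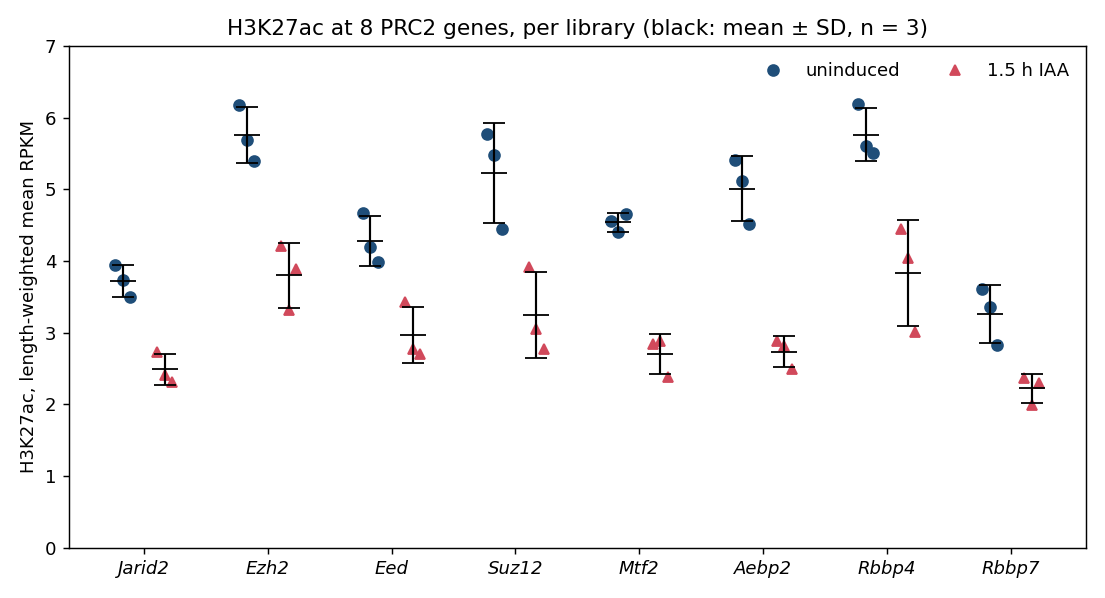
H3K27ac at each of the 8 genes (x axis) as the length-weighted mean RPKM of its peaks (y axis), with 1 point per library: circles for the 3 uninduced and triangles for the 3 IAA libraries, and black bars for the mean ± SD. At every gene the 3 triangles lie below the 3 circles, from the pair of means 3.26 and 2.22 RPKM at Rbbp7 to 5.76 and 3.83 RPKM at Rbbp4.

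Relative to the median gene of each library, no member passed the test, and 1.37% of all genes did (limma, Benjamini-Hochberg adjusted p under 0.05, 0 of 8, with 2 of 8 at an unadjusted p under 0.05). These were Aebp2, with a relative log2 change of -0.32 (adjusted p = 0.0677), and Mtf2, with -0.20 (adjusted p = 0.331). Over all genes, 6.55% were lower at that unadjusted threshold. Aebp2 and Mtf2 were also the members whose relative IAA values all lay below their relative uninduced values, as did those of 9.55% of all genes. The other 6 genes had relative changes between -0.15 (Suz12) and 0.01 (Eed). Over all genes the median relative change was 0.016 and not 0, slightly above that of Eed at 0.012. Of all tested genes, 3.74% had a larger deposited fall than Aebp2, 9.38% than Mtf2, 14.1% than Suz12, 29.5% than Rbbp4, 29.9% than Ezh2, 36.4% than Jarid2, 45.5% than Rbbp7 and 48.7% than Eed. With 0.5 in place of 0.1 added before the log, Aebp2 passed the relative test (-0.31, adjusted p = 0.0401 in limma). Under that setting 191 of all 13092 genes were lower and 69 higher. Under each other alternative of the relative test Aebp2 did not pass (limma, adjusted p = 0.053 to 0.355).

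**Figure D2:**
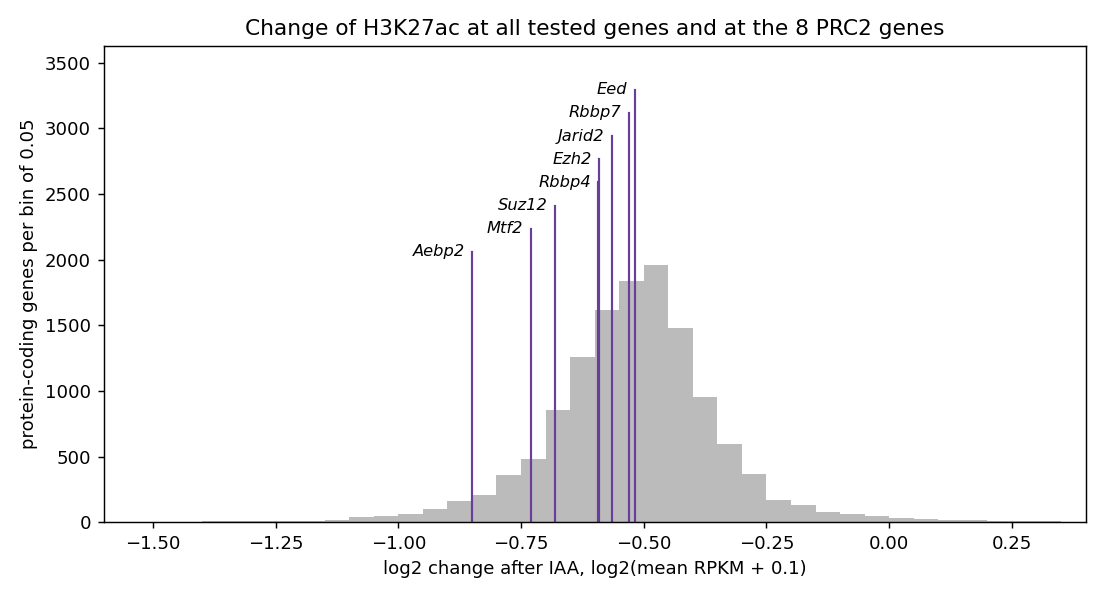
Histogram of the log2 change after IAA, on log2(mean RPKM + 0.1), over the 13092 tested genes (x axis, change; y axis, genes per bin of 0.05; 2 genes lie outside the bins), with a vertical line at the change of each PRC2 gene, whose height only spaces the names. All 8 lines are left of the median of all genes at -0.51, Eed at -0.52 and Rbbp7 at -0.53 close to it and Aebp2 at -0.85 in the left tail.

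At the level of single peaks, 26 of the 29 were lower after IAA and 0 were higher (limma with Benjamini-Hochberg adjustment over 26457 peaks), beside 68.2% of all tested peaks that were lower. Because peaks were called on the uninduced libraries alone, a region with the mark only after IAA could not be among them. This tilts the counts toward lower, over all tested peaks too. All 29 had a change below 0, beside a median of -0.55 over all tested peaks (quartiles -0.70 and -0.41). At 28 of the 29 the 3 IAA values lay below the 3 uninduced values, as at 71.2% of all tested peaks. Without uninduced replicate 1, 13 of the 29 passed, and the share of all tested peaks that passed was then 39.2%. After quantile normalization 0 of the 29 were lower, beside 1.69% of all tested peaks. Of the 26, 12 also passed without each library in turn, as did 47.8% of all lower peaks. The 12 were Jarid2 peaks 1, 5 and 6, Ezh2 peak 1, Suz12 peak 1, Mtf2 peaks 2, 3 and 4, Aebp2 peaks 1, 2 and 3 and Rbbp4 peak 2. Each of the other 14 missed the threshold in at least 1 such fit (limma, adjusted p = 0.0501 to 0.17), 13 of them without uninduced replicate 1, as did Rbbp4 peak 3 without IAA replicate 3. After each library was centred on its median peak, 0 of the 29 passed in limma (2.51% of all tested peaks, in either direction), and 4 had an unadjusted p under 0.05. Of these, Mtf2 peak 3 and Aebp2 peaks 1 and 2 were lower and Jarid2 peak 8 was higher. Over all 26457 tested peaks, 2336 were lower and 1431 higher at that unadjusted threshold. Peaks are numbered within each gene from 5′ to 3′.

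**Figure D3:**
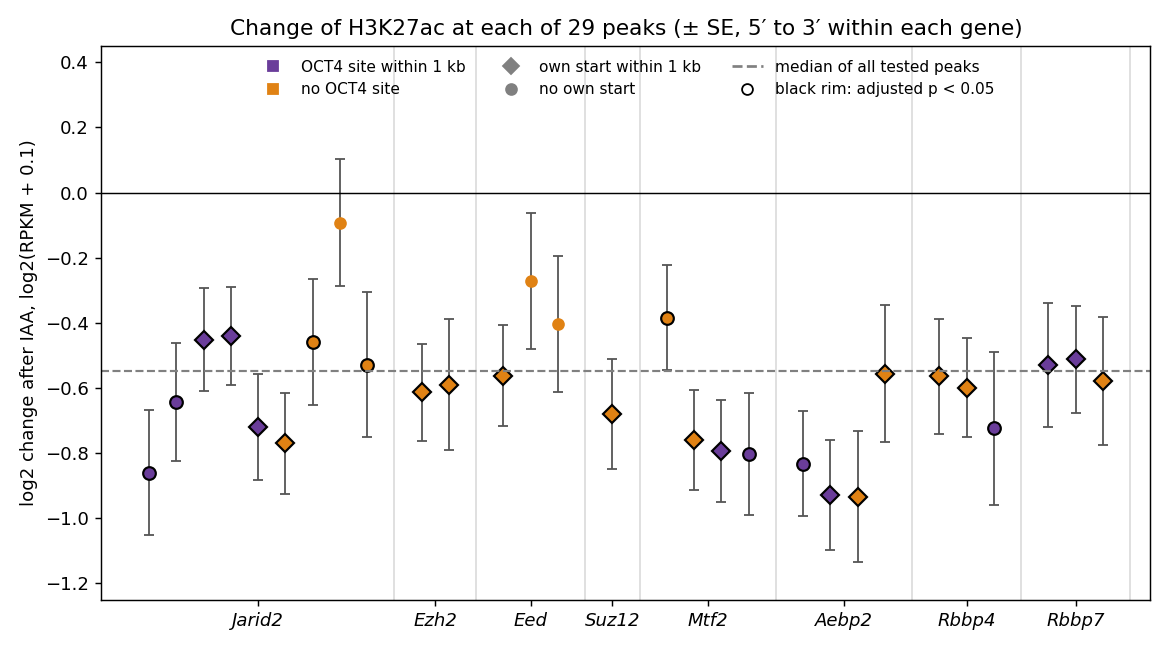
Log2 change after IAA with its SE (y axis) for each of the 29 peaks, grouped by gene and ordered 5′ to 3′ (x axis). Colour gives the OCT4 mark, diamonds are peaks within 1 kb of an own start, black rims mark an adjusted p under 0.05, and the dashed line is the median of all tested peaks at -0.55; the 3 peaks without a rim are Jarid2 peak 8 and Eed peaks 2 and 3.

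Among the core subunits, Ezh2 (ENSMUSG00000029687.16, chr6:47530139-47595341, minus strand), the gene of the methyltransferase, had 2 peaks, both at its start and neither with an OCT4 mark. Its level was 6.17, 5.69 and 5.40 RPKM in the uninduced and 4.20, 3.31 and 3.88 RPKM in the IAA libraries. The log2 change was -0.59 with an SE of 0.147 (limma, adjusted p = 8.9e-04), and relative to the median gene it was -0.06 (adjusted p = 0.853). The peak over the first exon and 5′ end, chr6:47595020-47596038, went from 6.51 ± 0.237 to 4.24 ± 0.491 RPKM (SD, n = 3), a log2 change of -0.61 (limma, adjusted p = 0.0035). The second peak lay in the intron behind it, at chr6:47594027-47594808. There the IAA libraries were uneven, at 3.53, 2.09 and 4.06 RPKM, and IAA replicate 3 nearly reached the lowest uninduced library, at 4.07 RPKM. The log2 change of this peak was -0.59 (limma, adjusted p = 0.0177), and without IAA replicate 2 it was -0.32 (adjusted p = 0.139).

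Eed (ENSMUSG00000030619.9, chr7:89954654-89980983, minus strand), whose product binds the methylated histone, had the smallest gene-level fall of the 8, from 4.66, 4.20 and 3.98 RPKM to 3.42, 2.77 and 2.71 RPKM. The log2 change was -0.52 with an SE of 0.148 (limma, adjusted p = 0.0024), and it was 0.01 relative to the median gene (adjusted p = 0.962). The promoter peak, chr7:89979815-89981664, also covered the start of E230029C05Rik, and the signal of the 2 genes cannot be told apart there. It went from 6.72 ± 0.630 to 4.54 ± 0.686 RPKM (SD, n = 3; limma, adjusted p = 0.0067). The remaining 2 peaks lay behind the 3′ end of the gene, had no OCT4 mark and did not pass the test. Their values were -0.27 (adjusted p = 0.231) at chr7:89950915-89951852 and -0.40 (adjusted p = 0.0864) at chr7:89949352-89950113 on the log2 scale in limma, at 36 to 56 and 35 to 59 reads per library.

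Suz12 (ENSMUSG00000017548.15, chr11:79993106-80034123, plus strand), the scaffold of the complex, had a single peak, chr11:79992267-79994114, over its promoter, first exon and first coding bases. The peak had no OCT4 mark. H3K27ac there was 5.78, 5.48 and 4.45 RPKM in the uninduced and 3.92, 3.05 and 2.76 RPKM in the IAA libraries. Uninduced replicate 3 was the lowest of its group and IAA replicate 1 the highest of the other, and the groups did not overlap. The log2 change was -0.68 with an SE of 0.152 (gene-level limma, adjusted p = 3.8e-04), and relative to the median gene it was -0.15 (adjusted p = 0.527).

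Rbbp4 (ENSMUSG00000057236.10, chr4:129307100-129335370, minus strand) and Rbbp7 (ENSMUSG00000031353.13, chrX:162760402-162779092, plus strand), the genes of the histone-binding pair, stood at opposite ends of the order of levels. Rbbp4 had 6.18, 5.61 and 5.5 RPKM in uninduced and 4.44, 4.04 and 3.01 RPKM in IAA libraries, and Rbbp7 had 3.61, 3.35 and 2.82 RPKM and 2.37, 2.0 and 2.3 RPKM. IAA replicate 3 was the lowest library for Rbbp4 and not for Rbbp7. The log2 changes were -0.59 (SE 0.151) and -0.53 (SE 0.151), with adjusted p = 0.0011 and 0.0024 in limma, and relative to the median gene they were -0.06 and -0.00 (adjusted p = 0.798 and 0.999).

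Both start peaks of Rbbp4, chr4:129335589-129336453 and chr4:129334509-129335333, also lay within 1 kb of the start of Zbtb8os, which is read in the other direction. The first had a log2 change of -0.56 (limma, adjusted p = 0.0123), and without IAA replicate 3 it was -0.36 (adjusted p = 0.0319). The second of these had the highest uninduced mean of the 29 peaks, 7.97 ± 0.727 RPKM, and 5.24 ± 0.673 RPKM after IAA (SD, n = 3). The only Rbbp4 peak with an OCT4 mark, chr4:129307497-129307907, lay at the 3′ end of the gene, where Sync overlaps it, at 2.36 ± 0.122 RPKM before and 1.46 ± 0.548 RPKM after IAA (log2 change -0.72, limma, adjusted p = 0.0142). It held 12 to 39 reads per library, and without IAA replicate 3 its log2 change was -0.40 and no longer passed (limma, adjusted p = 0.0502). The 3 peaks of Rbbp7 lay together at its start, and the first 2, chrX:162759303-162760060 and chrX:162760350-162760800, carried the mark. Their log2 changes were -0.53 and -0.51, and that of the unmarked peak behind them, chrX:162761041-162761626, was -0.58 (limma, adjusted p = 0.0221, 0.0137 and 0.0174).

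Of the proteins that join the core, Jarid2 (ENSMUSG00000038518.15, chr13:44729474-44921643, plus strand) is the founding member of the Jumonji family, and it had the most peaks, 9, of which 5 carried the OCT4 mark. Its level was 3.94, 3.73 and 3.49 RPKM in the uninduced and 2.74, 2.41 and 2.31 RPKM in the IAA libraries, and the groups did not overlap. The log2 change was -0.57 with an SE of 0.147 (gene-level limma, adjusted p = 0.0012), and relative to the median gene it was -0.03 (adjusted p = 0.885). The 5 marked peaks were the first 5 of the gene, 2 of them intergenic and 3 at annotated starts.

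The 2 intergenic peaks began the row. Peak 1, chr13:44721170-44721934, ended at -7.54 kb from the GENCODE start and had 2.78, 2.57 and 2.54 RPKM in uninduced and 1.53, 1.63 and 1.10 RPKM in IAA libraries (log2 change -0.86, limma, adjusted p = 0.0021), the largest change of the 9. Peak 2, chr13:44722526-44723489, went from 2.91, 2.33 and 2.39 RPKM to 1.67, 1.50 and 1.59 RPKM (-0.64, limma, adjusted p = 0.0072). Peaks 3 and 4 had higher levels and smaller log2 changes than these intergenic peaks. Peak 3, chr13:44729459-44729979, at the GENCODE start, went from 5.45, 4.56 and 5.22 RPKM to 4.28, 3.30 and 3.50 RPKM (-0.45, limma, adjusted p = 0.0197). Peak 4, chr13:44730784-44731370, over the promoter printed above, was the strongest of the gene, with 8.37, 7.98 and 6.52 RPKM and then 6.0, 5.39 and 5.32 RPKM (-0.44, limma, adjusted p = 0.0174). No change of this gene that passed the test was smaller than that of peak 4.

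Behind the GENCODE start, the marked intronic peak 5, chr13:44733046-44733454, lay within 1 kb of another annotated start of the gene. It had 6.69, 6.35 and 5.44 RPKM and then 4.45, 3.46 and 3.25 RPKM, a log2 change of -0.72 (limma, adjusted p = 0.0022). Its unmarked neighbour, peak 6, chr13:44733855-44734684, over a further annotated exon and start, went from 4.61, 4.92 and 4.83 RPKM to 3.08, 2.77 and 2.47 RPKM, a log2 change of -0.77 (limma, adjusted p = 0.0011). The changes of this marked and unmarked pair differed by less than either SE (0.162 and 0.155). The 3 peaks farther into the gene were unmarked and low. Peak 7 in an intron (chr13:44747837-44748224, -0.46) and peak 9 over a coding exon (chr13:44896299-44896650, -0.53) passed the test with an adjusted p of 0.0421 each in limma, at 17 to 33 and 11 to 26 reads per library. Peak 8, chr13:44869395-44870223, 139.9 kb into the gene in an intron, had 1.86, 2.18 and 1.50 RPKM in uninduced and 1.73, 1.67 and 1.71 RPKM in IAA libraries, and it was the one peak of the 29 whose groups overlapped. Its log2 change was -0.09 (limma, adjusted p = 0.658), and relative to the median peak it was 0.46 (unadjusted p = 0.0186, adjusted p = 0.216 in limma).

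**Figure D4:**
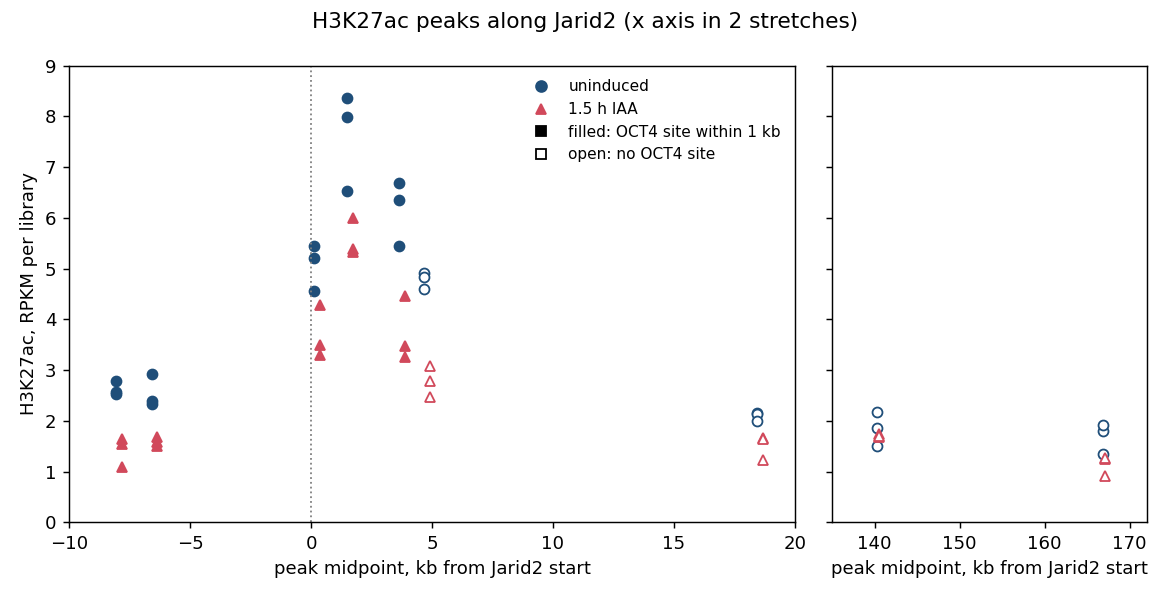
H3K27ac in RPKM per library (y axis) at the 9 Jarid2 peaks by the distance of the peak midpoint from the GENCODE start in kb (x axis, drawn in 2 stretches). Circles are the 3 uninduced and triangles the 3 IAA libraries, set slightly apart, filled at peaks with the OCT4 mark. The signal is highest at peak 4 (means of 7.63 and 5.57 RPKM), and the libraries of the 2 conditions overlap only at peak 8, 139.9 kb into the gene.

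Aebp2 (ENSMUSG00000030232.18, chr6:140622663-140678472, plus strand), which encodes the zinc finger partner of JARID2 in the complex, had the largest fall of the 8 genes. Its level was 5.40, 5.11 and 4.51 RPKM in the uninduced and 2.89, 2.82 and 2.49 RPKM in the IAA libraries. The log2 change was -0.85 with an SE of 0.147 (gene-level limma, adjusted p = 1.5e-05). The first 3 of its 4 peaks lay around the start within a few kilobases of each other. Peak 1, chr6:140620569-140621578, marked and inside the neighbouring Gm44013, went from 5.21, 4.70 and 4.63 RPKM to 2.47, 3.19 and 2.43 RPKM (-0.83, limma, adjusted p = 8.1e-04). Peak 2, chr6:140622569-140623382, marked and over the GENCODE start of Aebp2, whose promoter held 4 CG, went from 7.22, 6.88 and 5.69 RPKM to 3.71, 3.92 and 2.70 RPKM (-0.93, limma, adjusted p = 5.0e-04). Both peaks lay within 1 kb of a Gm44013 start, and peak 1 had no start of Aebp2 within 1 kb, so the signal of the 2 genes cannot be told apart there.

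Peak 3 of Aebp2, chr6:140624261-140624733, was unmarked and overlapped the second promoter printed above, with 21 CG. It went from 6.91, 6.90 and 5.42 RPKM to 4.10, 2.17 and 3.97 RPKM, a log2 change of -0.93 (limma, adjusted p = 0.0016), and IAA replicate 2 was well below the others. Without IAA replicate 2 the change of peak 3 was -0.65, and those of peaks 1 and 2 were -0.95 and -1.03. Peak 4, chr6:140642897-140643443, at a start inside the gene, was low, at 1.73 ± 0.0442 RPKM before and 1.16 ± 0.211 RPKM after IAA (SD, n = 3), with a log2 change of -0.56 (limma, adjusted p = 0.0271). Relative to the median peak, peak 2 had a change of -0.37 with an unadjusted p of 0.0050 and an adjusted p of 0.105 in limma, and with no threshold on the level of peaks its adjusted p was 0.0483. Under that setting 947 of all 31131 peaks were lower and 2735 higher. Under each other alternative of the relative test peak 2 did not pass (limma, adjusted p = 0.0537 to 0.413).

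Mtf2 (ENSMUSG00000029267.17, chr5:108065674-108109004, plus strand), the Polycomb-like gene, had the second largest fall, from 4.56, 4.40 and 4.66 RPKM to 2.84, 2.89 and 2.39 RPKM. The log2 change was -0.73 with an SE of 0.146 (gene-level limma, adjusted p = 1.2e-04). The uninduced libraries were close together, with an SD of 0.129 RPKM. The main promoter peak, chr5:108065587-108066536, unmarked and with a promoter of 30 CG, went from 6.98, 6.63 and 7.18 RPKM to 4.11, 4.70 and 3.44 RPKM (-0.76, limma, adjusted p = 0.0011). The marked peak 3 over an internal start, chr5:108077419-108078330, beside the octamer printed above, went from 5.52, 6.0 and 5.90 RPKM to 3.86, 3.29 and 2.85 RPKM (-0.79, limma, adjusted p = 9.4e-04). The marked peak 4 in an intron, chr5:108096963-108098698, went from 2.5 ± 0.304 to 1.39 ± 0.134 RPKM (SD, n = 3; -0.80, limma, adjusted p = 0.0027). These 3 changes differed by less than their SEs, which were 0.155 to 0.188. The smallest change of the gene was -0.38 (limma, adjusted p = 0.0418), at the unmarked intergenic peak 1, chr5:108060687-108061105.

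In order of the uninduced mean, the genes were Rbbp4 (5.76 RPKM), Ezh2 (5.75), Suz12 (5.23), Aebp2 (5.01), Mtf2 (4.54), Eed (4.28), Jarid2 (3.72) and Rbbp7 (3.26). Neighbours in this order overlapped between libraries in both conditions, apart from Eed and Jarid2 in the uninduced libraries, where the lowest Eed value was 3.98 and the highest Jarid2 value 3.94 RPKM. After IAA the order was the same but for Eed, which stood above Aebp2 and Mtf2. The median uninduced level of the 8 genes was 4.77 RPKM, beside 2.80 RPKM over all tested genes. Gene values rested on 129 to 879 reads per library, and the counting error of the lowest library was 4.7% to 8.8% of its value.

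By the OCT4 mark, all 12 marked peaks and 14 of the 17 unmarked peaks of the 8 genes were lower after IAA, beside 85.2% of all tested peaks with the mark and 64.6% of those without it. The median log2 change was -0.72 over the marked and -0.56 over the unmarked peaks, beside -0.71 and -0.52 over all tested peaks with and without the mark. In the libraries themselves, the median log2(RPKM + 0.1) of the marked minus that of the unmarked peaks was 0.12, -0.09 and 0.04 in the uninduced and -0.06, 0.55 and -0.04 in the IAA libraries. Its mean went from 0.02 ± 0.10 to 0.15 ± 0.35 (SD, n = 3), a change of 0.13, where over all tested peaks it changed by -0.21. IAA replicate 2 set the sign at the 8 genes: without it the change was -0.07. Over the 4 marked and 6 unmarked peaks with no start of any gene within 1 kb, the change was -0.37. With the gene body alone it was 0.11, and with 2 kb added it was 0.099. These are differences of median levels and not medians of the changes of single peaks, so the measures can differ in sign. None of these differences was tested.

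By position, all 18 peaks at an own start and 8 of the 11 others were lower after IAA, beside 70% of all tested peaks within 1 kb of a start of any gene and 66.4% of those with none. The medians were -0.59 at own starts and -0.53 elsewhere, beside -0.53 and -0.58 over these 2 kinds of tested peaks. The median GC content of the 29 peaks was 53.2% and their median length 781 bp, beside 52.9% and 728 bp over all tested peaks. At 5 of the 29 the start of another gene lay within 1 kb, and when peaks at the start of another gene and not of the member were left out, all 8 genes remained lower. In that fit 9894 of all 11949 tested genes were lower.

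The genes whose pattern over the 6 libraries was most like that of Jarid2, by Euclidean distance on log2(mean RPKM + 0.1) after subtracting the mean of each gene, were Mpdu1 and Cd68, at 0.0369, and Ube2f, at 0.0421. Mpdu1 and Cd68 were represented by the same peaks and have the same values. Of the other members Eed was the nearest to Jarid2 at 0.116 and Aebp2 the farthest at 0.371, and the median over all tested genes was 0.327.

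The rest of the Polycomb system was described with a list of 41 genes, of which 35 had a tested level. Of these, 30 were lower, 0 were higher and 5 did not pass (gene-level limma with Benjamini-Hochberg adjustment), with a median log2 change of -0.47. Over all 13092 genes 86.5% were lower, with a median of -0.51. By role, read against the same 86.5%, 23 of 26 genes of PRC1, the complex that places ubiquitin on histone H2A, were lower. So were 2 of 4 further PRC2 genes (Phf1 and Epop) and all 5 genes whose products take part in removing the Polycomb marks. The 3 largest changes were those of Phc1, a PRC1 subunit (-1.23, adjusted p = 8.9e-09), Usp7, a deubiquitinase found with PRC1 (-0.87, adjusted p = 1.7e-05), and Rybp, a subunit of variant PRC1 (-0.75, adjusted p = 2.1e-04). The 3 smallest were those of Lcor (-0.33), Pcgf6 (-0.26) and E2f6 (-0.18), none of which passed. Relative to the median gene, 1 of the 35 passed in limma, Phc1 (-0.70, adjusted p = 0.0020), beside 1.37% of all genes. The count of 30 was 19 without uninduced replicate 1 and 16 without uninduced replicate 2, where the share of all genes that were lower was 65.6% and 67.6%. Cbx2 and Cbx8 share their peaks and count as 2 genes with the same values.

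**Figure D5:**
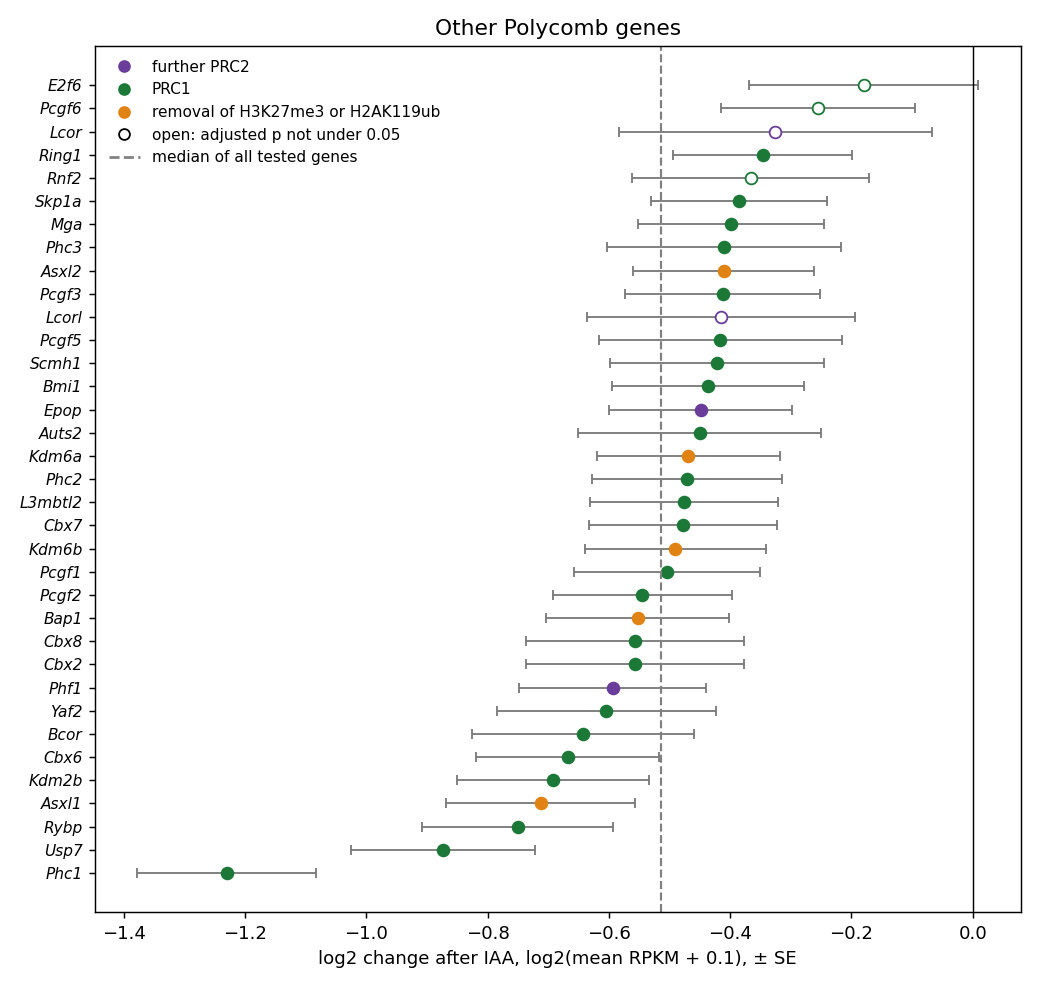
Log2 change after IAA with its SE (x axis) of the 35 tested genes of the Polycomb list (y axis), coloured by role, open where the adjusted p was not under 0.05. The dashed line is the median of all tested genes at -0.51; Phc1 at -1.23 lies far to the left of the others, which range from -0.87 to -0.18.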

How the data were processed

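Reads were mapped by the authors to GRCm38 with Bowtie2 (2.3.4.3 in the submitters' processing notes), duplicates were removed, and MACS2 was run on the merged uninduced libraries. The deposited RPKM values per library were made with DiffBind. No version of MACS2 or DiffBind is given in the sources used here. The deposited pooled columns equalled the mean of the 3 libraries and served only for the threshold. All RPKM values were whole multiples of 1 read within 0.01 reads, which gave the library sizes and reads per peak. RPKM is not a count, so limma 3.58.1 in R 4.3.3 (lmFit, eBayes with trend and robust) was fitted to log2(RPKM + 0.1), over 26457 peaks with at least 0.5 RPKM in either pooled column and over 13092 of 21938 protein-coding genes, with Benjamini-Hochberg adjusted p-values called under 0.05. Low peaks have their change understated on this scale. Relative values subtract the median tested peak or gene of each library. For single genes all 20 labellings of the libraries entered an exact two-sided permutation test. Between replicates, the chi-square of the reads per degree of freedom was 1.02 to 1.16 in uninduced and 1.17 to 1.64 in IAA libraries. The closest pair, uninduced replicates 1 and 2 at 1.02, was near counting noise. The labels name them as separate samples and they entered as 2, and an alternative chosen after seeing the data took their mean as 1 sample. Sequences came from RefSeq on GRCm38.p6, the build of the files, and all 8 genes matched. Coordinates are printed as the files give them.

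The members, the Polycomb and marker lists and the tests were chosen with earlier results of these data known. Named were all 8 genes, their peaks at own starts, with the OCT4 mark and with the largest and smallest change, neighbours with a start within 1 kb, the 3 largest and 3 smallest changes of the Polycomb list, and the 3 genes most like Jarid2. Other peaks of the 8 genes were named after their values were seen. The alternatives were the pseudocount, the threshold, limma's settings, the replicate number as a block, quantile normalization, the window, the weights and leaving out each library. The labels give the antibody number as ab4792 and the methods as ab4729. RNA sequencing and NANOG data of the study were not analysed here.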

Additional observations from a re-analysis of the deposited data

How the results depend on the processing

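The 8 lower genes passed under every alternative run apart from quantile normalization, under which 0 genes, 0 of the 29 peaks and 1 of the 35 other Polycomb genes passed. That scaling removes a shift common to all peaks. Leaving out 1 library at a time gave 13 to 25 lower peaks in place of 26 and 16 to 32 lower Polycomb genes in place of 30, lowest without uninduced replicate 1 for peaks and without uninduced replicate 2 for genes (19 without uninduced replicate 1). The same fits gave 10378 to 19611 lower of all 26457 tested peaks and 8591 to 11923 lower of all 13092 genes. Relative to the median, 1 peak (Aebp2 peak 2) passed with no threshold and 1 gene (Aebp2) with a pseudocount of 0.5, in place of 0 each. Over all features these settings called 947 lower and 2735 higher of 31131 peaks, and 191 lower and 69 higher of 13092 genes. The genes whose libraries did not overlap numbered 2 in place of 8 once each library was set relative to its median gene. The share over all genes was then 9.55% in place of 82.6%. The change of the difference between marked and unmarked peaks, 0.13, was 0.11 with the gene body alone and 0.099 with 2 kb added. It was -0.37 over peaks with no start within 1 kb and -0.072 to 0.23 when 1 library was left out. With uninduced replicates 1 and 2 as 1 sample, an alternative chosen after seeing the data, 16 peaks were lower (44.5% of all tested peaks), 21 other Polycomb genes and all 8 genes, and Rbbp7 was at 0.028 relative to the median gene. Of all 13092 genes, 9100 were lower in that fit. The cause of these moves was not tested.

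Relative gene changes close to 0 turned their sign, and none of them passed in either direction. In the main fit the median relative change over all genes was itself 0.016. Jarid2 was at 0.0052 with the gene body alone and 0.0057 with 2 kb added, Ezh2 at -0.17 to 0.035 and Rbbp4 at -0.11 to 0.0059 when 1 library was left out (highest without IAA replicate 2 and IAA replicate 3). Eed, at 0.01, was at -0.013 with a pseudocount of 0.5, -0.035 with the gene body alone, -0.034 with 2 kb added, and -0.020 to 0.058 when 1 library was left out, below 0 without uninduced replicate 2 or 3 or IAA replicate 1 or 3. Rbbp7, at -0.00, was at 0.0028 with a pseudocount of 0.02, 0.00043 with only peaks of at least 0.5 RPKM, 0.0012 with an unweighted mean, and -0.12 to 0.075 when 1 library was left out, above 0 without uninduced replicate 1 or 2 or IAA replicate 1 or 2. After quantile normalization the change was above 0 at Eed (0.015) and at 12 peaks, namely Jarid2 peaks 3 (0.12), 4 (0.066), 7 (0.093), 8 (0.48) and 9 (0.047), Eed peaks 2 (0.32) and 3 (0.17), Mtf2 peak 1 (0.20), Aebp2 peak 4 (0.017), Rbbp4 peak 1 (0.0048) and Rbbp7 peaks 1 (0.032) and 2 (0.060). Under quantile normalization the median change was also above 0 over all features, at 0.018 for tested peaks and 0.0076 for genes. Without that scaling, Jarid2 peak 8 ranged from -0.23 to 0.028 when 1 library was left out, above 0 without uninduced replicate 2.

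The replicate numbers did not pair the libraries: deviations of same-numbered libraries from their group means correlated at -0.014, -0.091 and -0.061 over the tested peaks. With the replicate number as a block, 26 peaks, 8 genes and 31 other Polycomb genes were lower, and relative to the median 0 peaks and 0 genes passed. In the block fits 18898 of all 26457 tested peaks and 11769 of all 13092 genes were lower. Relative to the median, the block fits called 311 of all tested peaks lower and 79 higher, and 60 of all genes lower and 18 higher. The lowest peak value rests on 11 reads, a counting error of 30.2%.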

Other observations

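Phc1, a PRC1 subunit and the gene with the largest change in the Polycomb list, had 4 peaks, of which 3 carried the OCT4 mark. Phc1 was picked for its change in these data, so its peaks are no separate test of it. Each was lower after IAA, beside 68.2% of all tested peaks. At each, all 3 IAA libraries lay below all 3 uninduced libraries, as at 71.2% of all tested peaks. The marked peak at its start, chr6:122340061-122340585, had 9.31, 7.48 and 7.89 RPKM in the uninduced and 3.19, 2.75 and 2.37 RPKM in the IAA libraries, a log2 change of -1.54 (limma, adjusted p = 1.4e-05). The unmarked peak beside it, chr6:122338539-122339578, had a log2 change of -1.43 (adjusted p = 1.7e-05), and the marked peak with no start within 1 kb, chr6:122342732-122343252, had -1.82 (adjusted p = 9.0e-06 in limma). Relative to the median peak these 3 also passed, with -0.99, -0.88 and -1.27 and adjusted p values of 0.0011, 0.0024 and 0.0033 in limma. Of all tested peaks 2.51% passed, in either direction. The fourth, chr6:122308812-122310150, marked and at the start of the neighbouring M6pr, had a log2 change of -0.78 (adjusted p = 0.0013) and a relative change of -0.22 that did not pass (adjusted p = 0.343 in limma).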
